A study of Mus musculus with 6 samples.

Results

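The 7 genes described here, *Klf2*, *Klf4*, *Klf6*, *Nos3*, *Thbd*, *Mef2c* and *Cav1*, are known in vascular biology as genes of the endothelial response to blood flow. They were picked by gene symbol, as 7 of the 24062 genes in the count tables, and all 7 were found there. RNA was sequenced from CD31+ckit+ cells of the aorta-gonad-mesonephros region (AGM) at embryonic day 10.5, where blood stem and progenitor cells form from the endothelium of the aorta. All embryos were of the C57BL/6JOlaHsd strain and carried the Gata2Venus reporter on 1 allele (*G2V/+*), a Venus fluorescent protein placed in the *Gata2* locus, so the reporter was present in both groups. Cells with an intermediate Venus signal (Vmed, named G2Vi in the labels) and cells with a high one (Vhigh, G2Vh) gave 3 libraries each, with replicate numbers 1 to 3 in both fractions. The methods place flattened endothelial cells outside the ckit+ gate, so both fractions hold cells that bulge from the aortic wall or lie in the clusters attached to it.

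Flowing blood pulls on the endothelium, and the cells sense this shear stress at their membrane and junctions. A kinase cascade that ends in ERK5 then activates the MEF2 transcription factors, and these switch on *Klf2* and *Klf4*. The KLF2 and KLF4 proteins in turn raise *Nos3*, which encodes the endothelial nitric oxide synthase, and *Thbd*, which encodes the anticoagulant receptor thrombomodulin. In the early embryo the onset of the heartbeat and nitric oxide signaling are known to favor the formation of blood stem cells in the aorta.

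The Krüppel-like factors bind GC-rich and CACCC-like elements, and *Klf2* is the classical MEF2 target of the flow response. For this reason the sequence before its start is printed, from the RefSeq promoters of GRCm38.p6, as the 250 bases on the plus strand at chr8:72318812-72319061. Capitals mark GGCGG and CACCC on either strand and the MEF2 consensus. The RefSeq start used for this window lies downstream of the GENCODE start of the gene given with its levels, so the last printed bases fall inside the first exon of the GENCODE gene.

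*Klf2*: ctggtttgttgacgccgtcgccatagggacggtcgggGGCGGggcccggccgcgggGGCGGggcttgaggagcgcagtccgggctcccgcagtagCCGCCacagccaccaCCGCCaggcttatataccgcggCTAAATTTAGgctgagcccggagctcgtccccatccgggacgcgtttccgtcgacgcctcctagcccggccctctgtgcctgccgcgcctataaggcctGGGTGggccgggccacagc

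The MEF2 consensus stands 118 to 109 bases before the RefSeq start and reads the same on both strands. It was present in 3.19% of the 32851 promoters of the same length (300 bases, the printed bases plus the 50 that follow), and in none of the 7 other windows of *Klf4*, *Klf6*, *Mef2c* and *Cav1*. CACCC occurred once in the *Klf2* window, 19 to 15 bases before the RefSeq start and within the GENCODE exon, and was present in 57.5% of all promoters. GGCGG occurred 4 times, where the median over all promoters was 0, and was present in 48.8% of them. The *Klf4* window held 11 copies of GGCGG, the *Klf6* window 2, the 2 *Cav1* windows 4 and 3 and the *Mef2c* windows 0, 1 and 0. G and C made up 69.3% of the *Klf2* window and 74.3% of the *Klf4* window. CACCC occurred 1, 0 and 3 times in the *Mef2c* windows, 0 and 1 times in those of *Cav1*, and not in those of *Klf4* and *Klf6*. The windows of *Nos3* and *Thbd* were not used here. These matches describe the letters of the sequence and do not show that a factor bound there.

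The deposited values are raw read counts per gene, and levels are given as CPM, the counts scaled to the same total over genes in each library. The Vmed libraries 1, 2 and 3 held 8740513, 8296831 and 9715131 counts on genes, and the Vhigh libraries held 10660122, 10861125 and 12035206. A count of 3, taken as the smallest that can be shown, was worth between 0.249 and 0.362 CPM. Vhigh replicate 1 stood apart from the rest: of 9672 genes with at least 5 counts in each of the 5 other libraries, 1390 (14.4%) were at 0 there. In the 5 other libraries that share was between 0.0268% and 1.40%. *Klf2*, *Nos3* and *Cav1* are among those genes, so their values are also given without that library. The sorting gene *Kit* had 64.1, 208 and 59.1 CPM in Vmed and 255, 490 and 521 CPM in Vhigh, and *Pecam1* (CD31) had 118, 569 and 476 CPM in Vmed and 160, 224 and 436 CPM in Vhigh.

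To compare Vhigh with Vmed, the quasi-likelihood test of edgeR was run over the 12688 genes that passed a filter on low counts, with Benjamini-Hochberg adjustment. All 7 genes passed the filter. None passed the threshold of 0.05, and the adjusted p was 0.9998 for each of them. Of all genes tested, 0 passed (0%), while 259 (2.04%) had an unadjusted p under 0.05 in edgeR's test and DESeq2 called 82. The study itself, also with edgeR and a threshold of 0.05, reported many genes as different between the fractions. The reason for this difference in calls was not tested. No flow gene had an unadjusted p under 0.05. The log2 fold change (Vhigh over Vmed) was below 0 for 4 of the 7 genes, beside 51.1% of all genes, and its median was -0.23, beside -0.02 for all genes. In each of the 7 genes the values of the fractions overlapped, while they did not overlap in 8.87% of all genes. The 3 pairs of the same number went the same way for 4 of the 7 (*Klf2*, *Nos3*, *Mef2c* and *Cav1*), beside 30.6% of all genes. The labels do not say whether the libraries came from separate embryos or litters, so the tests measure the spread between these libraries. In sorted bulk RNA, fewer cells that express a gene and less RNA per cell cannot be told apart.

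**Figure D1:**
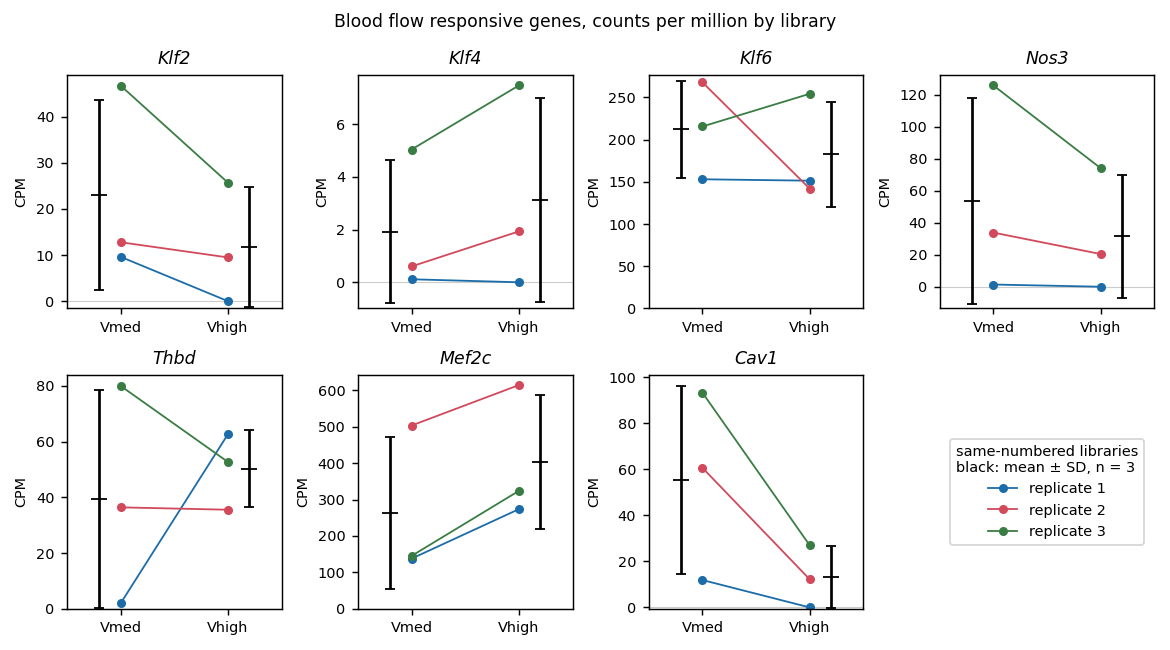
CPM (y axis) of the 7 flow responsive genes in the 3 Vmed and 3 Vhigh libraries. Points are libraries, lines join libraries with the same replicate number, and black bars are the mean ± SD of 3 libraries, which reach below 0 where the SD exceeds the mean. *Cav1*, *Klf2* and *Nos3* lines run downward and *Mef2c* lines upward in all 3 pairs, while the ranges of the fractions overlap in every panel.

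The Krüppel-like transcription factor *Klf2* keeps flow-exposed endothelium quiescent. By the GENCODE annotation of GRCm38, used for all 7 genes, it lies on chromosome 8 from 72319033 to 72321656. *Klf2* had 9.61, 12.8 and 46.7 CPM in Vmed replicates 1, 2 and 3, and 0, 9.48 and 25.7 CPM in Vhigh replicates 1, 2 and 3. Replicate 3 was the highest library of both fractions, and Vhigh replicate 1 had no read on the gene, which allows up to 0.346 CPM (exact 95% Poisson limit, counting error only). The means were 23.0 ± 20.6 CPM in Vmed and 11.7 ± 13.0 CPM in Vhigh (SD, n = 3 each). Expression was lower in Vhigh in 3 of 3 same-numbered pairs, as was that of 15.4% of all genes. The difference in log2 was -1.03 (standard error 1.80, unadjusted p = 0.58 from edgeR), smaller than its own error. The exact two-sided permutation p was 0.4, where 3 libraries against 3 cannot give less than 0.1. Without Vhigh replicate 1 the fold change shrank to -0.44 (standard error 1.14), and without Vmed replicate 3 it was 0.034.

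*Klf4* shares many targets with *Klf2* and is also known as a pluripotency factor. It lies on chromosome 4, from 55527143 to 55532466, and was the least expressed of the 7 genes. There were 1, 5 and 49 reads on *Klf4* in Vmed and 0, 21 and 90 in Vhigh, or 0.114, 0.603 and 5.04 CPM against 0, 1.93 and 7.48 CPM. Both replicate 3 libraries stood far above the other 4, whichever the fraction. Vhigh was 3.21-fold above Vmed in replicate 2 and 1.48-fold in replicate 3, and both replicate 1 libraries were below 3 counts. The log2 fold change was 0.66 (standard error 2.43), the widest error of the 7 genes, and it turned to -1.11 without Vhigh replicate 3.

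*Klf6*, which is induced in many cell types after injury or growth signals, was the most evenly expressed. It lies on chromosome 13, from 5861482 to 5870394. Its levels were 153, 268 and 216 CPM in Vmed and 151, 142 and 254 CPM in Vhigh. No library stood apart, and the means were 212 ± 57.5 and 183 ± 62.4 CPM (SD, n = 3). A log2 fold change of -0.23 (standard error 0.49, unadjusted p = 0.65 from edgeR) was the smallest of the 7 in size. The same-numbered libraries disagreed in direction, with Vhigh to Vmed ratios of 0.989, 0.529 and 1.18.

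*Nos3* is the enzyme through which flow-exposed endothelium makes nitric oxide. It lies on chromosome 5, from 24364810 to 24384474, and its exons share 294 bases with the opposite-strand gene *Atg9b* and 1040 bases with an antisense gene that is not in the count table. Whether counting used the strand is not given in the sources used here, so reads in those bases cannot be assigned. *Nos3* was at 1.37, 33.9 and 126 CPM in Vmed and at 0, 20.4 and 74.1 CPM in Vhigh. Within each fraction the reads spanned from 12 (Vmed) or 0 (Vhigh) in replicate 1 to 1223 and 892 in replicate 3. Between the fractions the pairs differed less, as Vmed exceeded Vhigh 1.66-fold in replicate 2 and 1.70-fold in replicate 3. In replicate 1 the ratio was at least 4.88, set by the 3-count floor of the library at 0. The log2 fold change of *Nos3* was -0.81 (standard error 1.81, unadjusted p = 0.66 from edgeR, exact permutation p = 0.6). Leaving out Vhigh replicate 1 gave -0.22, and leaving out Vmed replicate 3 gave 0.87.

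*Thbd* encodes thrombomodulin, which binds thrombin and lets it activate the anticoagulant protein C. It lies on chromosome 2, from 148404466 to 148408188. *Thbd* had 1.94, 36.4 and 80.0 CPM in Vmed and 62.7, 35.5 and 52.7 CPM in Vhigh. The replicate 2 libraries were alike, with a Vhigh to Vmed ratio of 0.976, and replicate 3 was lower in Vhigh, with a ratio of 0.659. The replicate 1 pair went the other way by 32.2-fold. In the library labelled Vhigh 1, where *Klf2*, *Klf4*, *Nos3* and *Cav1* had no reads, *Thbd* had 668. The log2 fold change was 0.36 (standard error 1.13) with all libraries, and -0.46 (standard error 0.70) without both libraries of replicate 1, a comparison added after the data were seen.

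*Mef2c* is the transcription factor through which the ERK5 cascade acts on *Klf2*, and it is also used by blood, muscle and neural cells. It lies on chromosome 13, from 83504034 to 83667080. There were 138, 504 and 145 CPM in Vmed and 274, 615 and 324 CPM in Vhigh. Replicate 2 was the highest library of both fractions, unlike the replicate 3 maximum of *Klf2*, *Klf4*, *Nos3* and *Cav1*. Expression was higher in Vhigh in 3 of 3 pairs, by 1.99-fold, 1.22-fold and 2.23-fold, as was the expression of 15.2% of all genes in 3 of 3 pairs. The log2 fold change of *Mef2c* was 0.58 (standard error 0.58, unadjusted p = 0.34 from edgeR, exact permutation p = 0.3). With the replicate number as a block it was 0.78, with an unadjusted p of 0.036 in edgeR's test. In that fit 528 of 12688 genes had an unadjusted p under 0.05, and no gene passed the adjusted threshold.

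*Cav1* encodes caveolin-1, the coat protein of the flask-shaped membrane pits in which endothelial cells hold and restrain the nitric oxide synthase. It lies on chromosome 6, from 17306335 to 17341452. The counts were 104, 503 and 906 in Vmed and 0, 132 and 324 in Vhigh, or 11.9, 60.6 and 93.3 CPM against 0, 12.2 and 26.9 CPM. Replicate 1 was the lowest and replicate 3 the highest library of each fraction. Vmed replicate 1, at 11.9 CPM, lay below Vhigh replicates 2 and 3, so the fractions overlapped by that library. Within pairs Vmed exceeded Vhigh at least 42.3-fold in replicate 1 (against the 3-count floor), 4.99-fold in replicate 2 and 3.46-fold in replicate 3. The means were 55.3 ± 40.9 and 13.0 ± 13.5 CPM (SD, n = 3), and the log2 fold change of -2.13 was the largest of the 7 genes in size (standard error 1.65, unadjusted p = 0.22 from edgeR, exact permutation p = 0.2). It was -1.54 (standard error 1.01) without Vhigh replicate 1 and -2.02 (standard error 0.74, unadjusted p = 0.032) without both libraries of replicate 1. With the replicate block it was -3.44, with an unadjusted p of 0.087. The adjusted p did not pass the threshold in any of these fits.

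The reads of 0 in the library labelled Vhigh 1 were set beside genes of like level, those within 1.5-fold of each gene's mean CPM in the 5 other libraries. Of such genes, 9.47% were also at 0 there for *Nos3*, 13.5% for *Cav1*, 27.9% for *Klf2* and 71.0% for *Klf4*. A read of 0 there is thus common at the level of *Klf4* and less common at that of *Nos3* and *Cav1*.

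**Figure D2:**
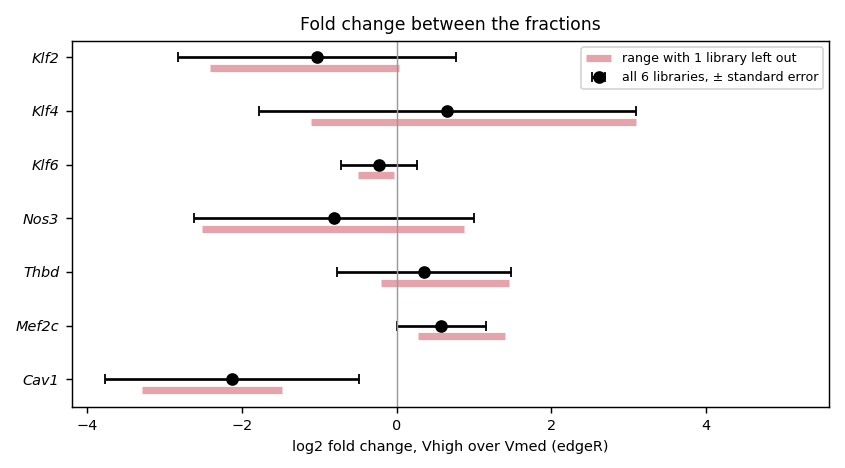
Log2 fold change of Vhigh over Vmed (x axis) of the 7 genes in edgeR's quasi-likelihood fit. Black points and bars are the value with all 6 libraries ± its standard error, and pink bars span the values with 1 library left out at a time. The pink bars of *Klf2*, *Klf4*, *Nos3* and *Thbd* cross 0, while those of *Cav1* and *Klf6* stay below 0 and that of *Mef2c* stays above it.

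Of the 7 genes, 4 shared an order of the replicate numbers. In both fractions *Klf2*, *Klf4*, *Nos3* and *Cav1* were lowest in replicate 1 and highest in replicate 3. This pattern was picked out after the values were seen, and 10.8% of all genes tested showed it. To describe it, the sum of squares of log2 CPM over the 6 libraries was divided into a part between replicate numbers, a part between fractions and a remainder. For *Klf4* 94.9% lay between replicate numbers and 0.927% between fractions. For *Nos3* 91.8% lay between replicate numbers and 5.66% between fractions. Of all genes, 6.26% had a larger replicate share than *Klf4* and 9.95% a larger one than *Nos3*. The medians of all genes were 55.1% between replicate numbers and 11.3% between fractions. *Cav1* had the largest share between fractions of the 7, 34.4%, followed by *Mef2c* with 27.3% and *Klf2* with 21.9%. For *Klf6* and *Thbd* most of the variation was in neither, with remainders of 52.3% and 51.9%.

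**Figure D3:**
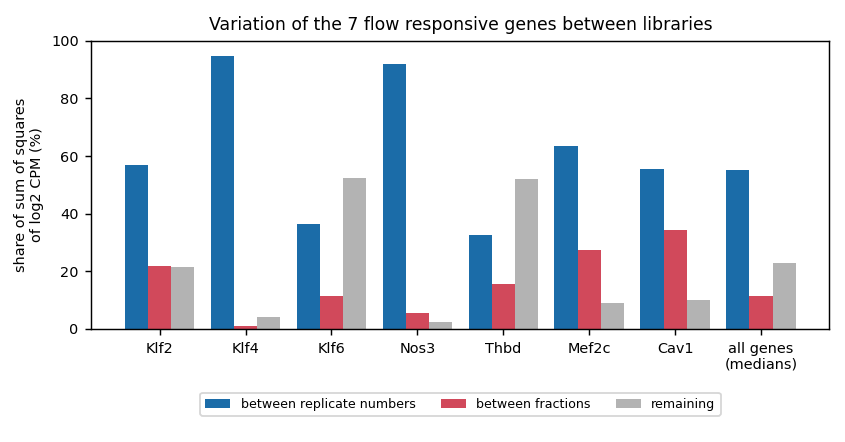
Share of the sum of squares of log2 CPM (y axis, %) that lay between replicate numbers (blue), between fractions (red) and in the remainder (gray), for each of the 7 genes and as medians over all 12688 genes. Blue bars exceed 90% for *Klf4* and *Nos3*, and the red bar is tallest for *Cav1*.

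Per exon length the 7 genes spanned a wide range. Levels in RPKM (CPM divided by the exon length in kilobases), over the 6 libraries, were 45.0 ± 12.8 for *Klf6*, 21.2 ± 12.3 for *Mef2c*, 12.1 ± 7.22 for *Thbd* and 10.3 ± 11.9 for *Nos3* (SD, n = 6). They were 9.91 ± 10.4 for *Cav1*, 9.41 ± 8.98 for *Klf2* and 0.829 ± 1.01 for *Klf4*. The order of *Klf6* above *Mef2c*, *Mef2c* above *Thbd* and *Klf2* above *Klf4* held in 5 of 6 libraries each. *Thbd* exceeded *Nos3* in 4 libraries, *Nos3* exceeded *Cav1* in 3 and *Cav1* exceeded *Klf2* in 2, so these neighbors did not differ beyond their spread. *Mef2c* has long alternative exons, and by the length of its longest transcript its level was 53.1 ± 30.7 RPKM, above the 46.7 of *Klf6*.

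The summed level of endothelial markers shared the replicate order of several of these genes. Summed over 18 endothelial markers, the level was 1949, 5322 and 6706 CPM in Vmed and 1499, 1962 and 4658 CPM in Vhigh, lowest in replicate 1 and highest in replicate 3 of each fraction as for *Klf2*, *Klf4*, *Nos3* and *Cav1*. By single marker, *Kdr*, *Tie1*, *Ramp2*, *Erg*, *Sox18*, *Flt1* and *Mmrn2* showed this order in both fractions, and the others did not. Of all genes tested, 10.8% showed it. Of the 18 markers 16 had a negative log2 fold change, beside 51.1% of all genes. In Vhigh replicate 1 *Sox18* had no reads and *Cldn5* had 2, below the 3-count floor, while each of the others was above that floor. Of 16 blood stem and progenitor markers, 15 had a positive log2 fold change, with sums of 975 to 2334 CPM in Vmed and 2249 to 5600 CPM in Vhigh. Their sum was higher in Vhigh in 3 of 3 pairs, as was *Mef2c*. Markers of other cells were mostly higher in Vmed. Mesenchyme markers summed to 2129 to 5477 CPM in Vmed and 314 to 847 CPM in Vhigh (12 of 14 negative), and macrophage and monocyte markers to 1213 to 2768 CPM and 276 to 1018 CPM (16 of 16 negative). The immediate early genes, which stress and cell dissociation switch on, as they can *Klf2*, *Klf4* and *Klf6*, summed to 804, 850 and 1850 CPM in Vmed and 566, 502 and 1468 CPM in Vhigh. Replicate 3 was the highest in both fractions, as it was for *Klf2* and *Klf4*, and also for *Nos3* and *Cav1*. *Klf6* was highest in replicate 2 in Vmed and in replicate 3 in Vhigh. Neutrophil markers were higher in Vhigh (366 to 544 CPM in Vmed, 805 to 1347 CPM in Vhigh, 5 of 6 tested positive). Of 9 mast cell markers only 2 were tested, and they went opposite ways, with log2 fold changes of 3.58 for *Cpa3* and -1.05 for *Hdc*. The list summed to 59.0, 39.3 and 27.7 CPM in Vmed and 137, 69.2 and 39.3 CPM in Vhigh. That sum was higher in Vhigh in 3 of 3 pairs. Of megakaryocyte markers 7 of 11 tested were negative, of erythroid 5 of 6, of mural and smooth muscle 7 of 9, of epithelium and mesothelium 7 of 8, of neural 10 of 10 and of skeletal muscle and cardiac 4 of 4. The part of these marker differences in the levels of the flow genes was not tested.

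**Figure D4:**
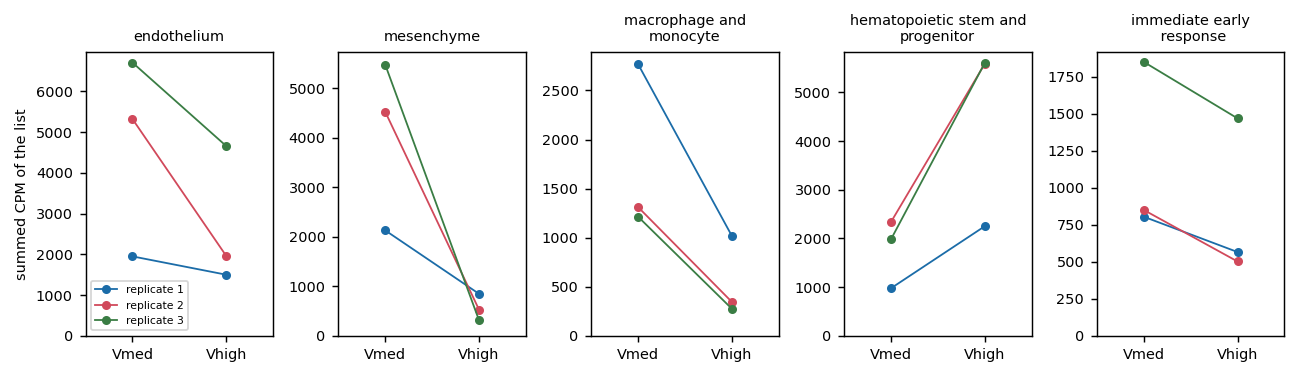
Summed CPM (y axis) of marker lists for 4 cell types and of the immediate early response genes, in the 3 Vmed and 3 Vhigh libraries. Lines join libraries of the same replicate number. The sum of endothelial markers is lowest in replicate 1 and highest in replicate 3 in both fractions. That of mesenchyme markers is higher in Vmed in all pairs, and that of progenitor markers is higher in Vhigh in all pairs.

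Counts were also set against those of *Cdh5* (VE-cadherin, an endothelial junction protein) in the same library, a comparison added after the levels were seen. *Cdh5* itself was lower in Vhigh in 3 of 3 pairs, which raises ratios to it there. *Mef2c* had 141, 139 and 52.9 counts per 100 *Cdh5* counts in Vmed and 483, 425 and 222 in Vhigh. On this scale its fractions did not overlap, with all Vhigh libraries above all Vmed libraries, as was so for 12% of all genes. The opposite held for 1.31% of all genes. Per 100 counts of *Pecam1*, however, *Mef2c* had 117, 88.4 and 30.5 in Vmed and 171, 275 and 74.3 in Vhigh, and the fractions overlapped. *Nos3* had 1.41, 9.38 and 45.9 counts per 100 *Cdh5* counts in Vmed and 0, 14.1 and 50.8 in Vhigh. The direction of *Nos3* in replicates 2 and 3 was thus reversed from that in CPM, but per 100 *Pecam1* counts it was reversed only in replicate 2 (5.95 in Vmed and 9.14 in Vhigh) and not in replicate 3 (26.4 and 17.0). *Cav1* kept its direction per *Cdh5* count, with 12.2, 16.8 and 34.0 in Vmed and 0, 8.41 and 18.4 in Vhigh, and per 100 *Pecam1* counts, with 10.1, 10.6 and 19.6 in Vmed and 0, 5.43 and 6.17 in Vhigh. *Klf2* had 9.86, 3.54 and 17.0 in Vmed and 0, 6.56 and 17.6 in Vhigh, with Vhigh above Vmed in replicates 2 and 3. Per 100 *Pecam1* counts *Klf2* was also above in replicate 2 (2.24 in Vmed and 4.24 in Vhigh) and below in replicate 3 (9.81 and 5.89).

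The genes whose profile over the 6 libraries was most like that of a flow gene were found by the mean absolute difference of centered log2 CPM. For *Cav1* they were the cytokine receptor subunit *Il6st* (0.20), the sinusoidal scavenger receptor *Stab2* (0.29) and the lymphatic growth factor receptor *Flt4* (0.34). For *Nos3* they were *Txnrd2* (0.26), *Prkd2* (0.42) and the endothelial transcription factor *Sox18* (0.44). The nearest genes were *Dapk2* (0.17), *Gprasp2* (0.21) and *Mfhas1* (0.22) for *Klf2*. In Vhigh replicate 1, where *Klf2*, *Nos3* and *Cav1* were at 0, all genes named for *Klf2* and *Nos3* were at 0 as well. So were *Il6st* and *Stab2*, and *Flt4* had 0.188 CPM there. The part of that library in these matches was not tested. For *Klf6* they were *Scarb1* (0.11), *Mef2a* (0.12) and *Cdc27* (0.13), for *Thbd* *Fanca* (0.17), *Rec8* (0.31) and *Syap1* (0.31), and for *Mef2c* *Las1l* (0.19), *Parm1* (0.22) and *Lbr* (0.23). Among the 7 themselves the closest profiles were those of *Klf2* and *Cav1* (0.64), and none was among the 3 nearest of another.

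Other genes of the flow response were described from 9 lists, which share some genes. Of 164 genes listed, 141 were tested, and 91 of them had a negative and 50 a positive log2 fold change, with a median of -0.38. Of all genes tested, 51.1% were negative, with a median of -0.02. The genes were listed with earlier results of these data known. None passed the adjusted threshold (0%), 5 had an unadjusted p under 0.05 in edgeR's test (all lower in Vhigh), and the libraries of the fractions did not overlap in 9 genes that were lower and 1 that was higher in Vhigh. Over all genes the fractions did not overlap in 4.71% (lower in Vhigh) and 4.15% (higher). Values in brackets below are log2 fold changes from that fit, with the unadjusted p where it was under 0.05, and the adjusted p was above 0.05 for each gene.

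Genes known to be raised by disturbed or low flow, the counterpart of the *Klf2* program, had negative values in 17 of 18 tested. The share over all genes was 51.1%, and the median log2 fold change of the list was -1.54. Of the 22 genes listed, 4 did not pass the filter on low counts (*Sele*, *Selp*, *Il6* and *Mmp9*), and the mean CPM of each was higher in Vhigh. The most expressed of these, *Selp* (P-selectin), was at 0 in all Vmed libraries and at 0, 33.7 and 15.5 CPM in Vhigh. *Thbs1* (thrombospondin-1, a matrix protein that also antagonizes nitric oxide signaling) had 85.8, 244 and 197 CPM in Vmed and 3.47, 29.1 and 18.2 CPM in Vhigh. The fractions did not overlap (-3.47, standard error 0.83, unadjusted p = 0.0019 from edgeR). *Thbs1* passed the adjusted threshold in DESeq2, and in edgeR with no filter on low counts or with the likelihood ratio test and the replicate block, but not otherwise. The gap junction gene *Gja1* was at 310, 624 and 260 CPM in Vmed and at 48.5, 250 and 132 CPM in Vhigh, also without overlap (-1.56, standard error 0.61, unadjusted p = 0.027 from edgeR). *Cyr61*, a matrix protein gene induced by YAP, had the highest level of this list, with 92.0, 175 and 273 CPM in Vmed and 32.5, 18.4 and 121 CPM in Vhigh (-1.65, standard error 0.79). Mesenchymal cells are known to express *Thbs1* and *Cyr61* as well, and mesenchyme markers were higher in Vmed in 3 of 3 pairs. The sort was for CD31+ckit+ cells, and a part of mesenchymal cells in these values was not tested. Marker lists of other cells were as one-sided, such as macrophage and monocyte (16 of 16 negative) and mesenchyme (12 of 14). Blood stem and progenitor markers (15 of 16 positive) and neutrophil markers (5 of 6 tested) went the other way.

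Genes known to be raised by laminar flow had negative values in 12 and positive values in 10 of 22 tested, with a median of -0.11. *Hmox1*, which encodes the heme-degrading enzyme heme oxygenase 1 and is a macrophage gene as well, had 88.0, 322 and 325 CPM in Vmed and 109, 17.2 and 17.9 CPM in Vhigh (-2.28, standard error 0.88, unadjusted p = 0.026 from edgeR). The chemerin receptor gene *Cmklr1* was at 5.61, 7.23 and 11.1 CPM in Vmed and at 0 in Vhigh replicates 1 and 3, with 12 reads in replicate 2, without overlap (-4.58, standard error 2.56).

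Of the genes that sense flow at the membrane, 17 of 24 had negative values (median -0.51). The most expressed, the integrin gene *Itgb1*, was at 334, 399 and 902 CPM in Vmed and 543, 292 and 858 CPM in Vhigh, with a log2 fold change of 0.05. The stretch-gated channel gene *Piezo2* had 53.3, 63.3 and 77.7 CPM in Vmed and 3.19, 24.6 and 35.5 CPM in Vhigh, without overlap (-1.69, standard error 0.99). *Cdh5* was at 97.5, 361 and 275 CPM in Vmed and 56.7, 145 and 146 CPM in Vhigh (-1.12, standard error 0.60).

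The list around the ERK5 kinase arm, which leads from the membrane to MEF2, had 8 negative and 9 positive values of 17 tested (median 0.10). Besides the kinases it holds histone deacetylases, MEF2 factors and small GTPases, so its signs mix genes of different roles. *Rap1a*, a small GTPase gene, had 6.29, 17.7 and 44.8 CPM in Vmed and 129, 50.7 and 42.5 CPM in Vhigh (1.71, standard error 0.98), and its relative *Rap1b*, the most expressed of the list, had a log2 fold change of 0.27. Of the partners and targets of MEF2C, 6 were negative and 8 positive of 14 tested (median 0.11). That list holds *Bop1*, a ribosome biogenesis gene that was entered in error. The anchoring protein gene *Akap12* had the lowest p of that list (-1.27, standard error 0.69), and the AP-1 gene *Jun* the highest level, with 35.1, 10.6 and 416 CPM in Vmed and 24.3, 27.4 and 511 CPM in Vhigh. *Jun* was thus also highest in both replicate 3 libraries.

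Among the remaining Krüppel-like factors, 10 of 14 were tested, with 5 negative and 5 positive values (median 0.47), and the mean CPM of each of the 4 not tested was higher in Vhigh. *Klf10*, a TGF-beta induced member, had the highest level, with 174, 231 and 106 CPM in Vmed and 132, 167 and 117 CPM in Vhigh (-0.33). *Klf14* had the lowest p (2.53, standard error 1.80).

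Nitric oxide pathway genes around *Nos3* had 13 negative and 9 positive values of 22 tested (median -0.16). *Ddah2* encodes an enzyme that breaks down an inhibitor of nitric oxide synthases. Its levels were 382, 159 and 163 CPM in Vmed and 53.4, 118 and 94.1 CPM in Vhigh, without overlap (-1.48, standard error 0.57, unadjusted p = 0.025 from edgeR). The chaperone gene *Hsp90aa1*, whose protein helps to activate the synthase, did not overlap in the other direction in CPM. It had 273, 199 and 321 CPM in Vmed and 397, 350 and 374 CPM in Vhigh (0.47, standard error 0.44). With the TMM scaling of the main fit its exact permutation p was 0.2, above the 0.1 of full separation, so the fractions overlapped on that scale. *Calm2* (calmodulin), the most expressed of this list, had a log2 fold change of 0.10.

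In the thrombomodulin and protein C pathway, 5 of 8 genes tested were negative (median -0.58). *F2rl2*, a thrombin receptor gene of platelets and other cells, had 132, 153 and 35.5 CPM in Vmed and 0, 9.39 and 10.8 CPM in Vhigh, without overlap (-4.06, standard error 1.48, unadjusted p = 0.021 from edgeR). The most expressed gene, the phospholipid-binding annexin *Anxa5*, had a value of -0.78 (standard error 0.51).

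Caveolae genes had negative values in 11 of 14 tested (median -0.54), and 3 of them did not overlap between the fractions. *Cav2* (caveolin-2), which forms the coat together with caveolin-1, had 27.8, 59.7 and 39.7 CPM in Vmed and 0, 23.1 and 22.7 CPM in Vhigh (-1.56, standard error 1.60). *Sdpr* (cavin-2), a coat protein that shapes caveolae, was at 44.4, 82.8 and 49.4 CPM in Vmed and at 0, 8.56 and 10.3 CPM in Vhigh (-3.30, standard error 1.57). The fatty acid receptor gene *Cd36* was the other one (-2.17, standard error 1.91). *Plvap*, which encodes the diaphragm protein of caveolae, was the most expressed, with 64.8, 62.4 and 1006 CPM in Vmed and 0.0938, 23.1 and 523 CPM in Vhigh. Like *Cav1* and *Nos3*, it was highest in replicate 3 of each fraction.

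**Figure D5:**
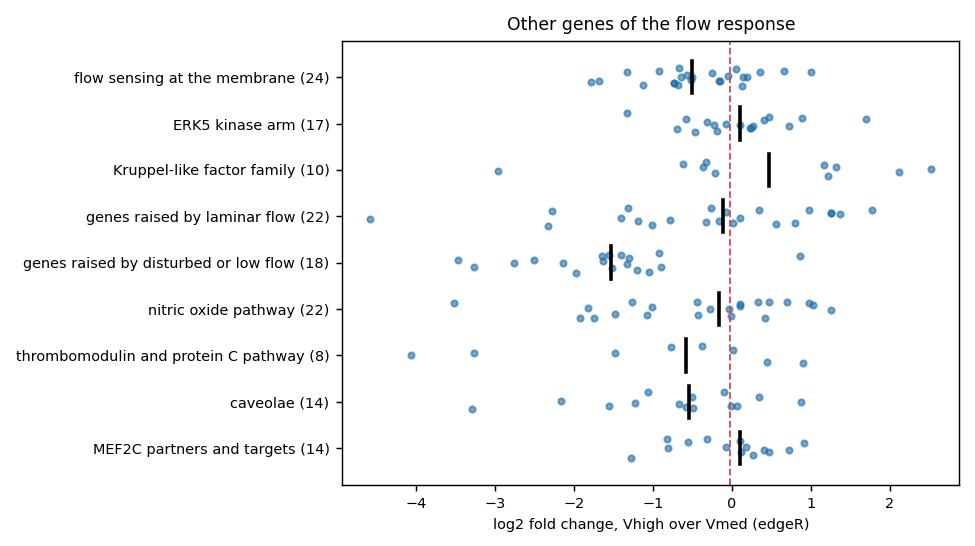
Log2 fold change of Vhigh over Vmed (x axis, edgeR) of the tested genes in 9 lists around the flow response, with the number tested in brackets. Points are genes, black lines are list medians and the dashed red line is the median of all 12688 genes, at -0.02. Points of the genes raised by disturbed or low flow lie left of 0 in 17 of 18, and the other lists spread over both sides.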

How the data were processed

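RNA of sorted CD31+ckit+ Vmed and Vhigh cells was amplified by the SMARTer protocol and sequenced as single reads of 50 bases. Alignment by the authors was to GRCm38/mm10, with TopHat and Bowtie 1.1.2, and the deposited files hold raw counts per gene for each library, without normalization. The submitters' processing notes also name HTSeq. The annotation, the counting settings and the use of strand are not given in the sources used here. Lines for reads not assigned to a gene, 7.09% to 35.6% of listed reads without a feature and 41.3% to 57.7% not aligned uniquely, were left out of totals and tests. The share without a feature went with the replicate number. In Vmed and Vhigh it was 18.0% and 16.5% in replicate 1, 28.1% and 35.6% in replicate 2, and 8.00% and 7.09% in replicate 3. Its part in the differences between replicate numbers was not tested.

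Libraries were grouped by their labels. From the counts, CPM were computed on the sum over genes, and the fractions were compared with edgeR 4.0.16 (R 4.3.3) by filterByExpr, TMM and a quasi-likelihood fit that held no term but the fraction, with p-values adjusted by the Benjamini-Hochberg method and a threshold of 0.05. Log2 CPM used a prior count of 2. RPKM used exon lengths of GENCODE genes on GRCm38, matched by symbol for 22750 genes and by another symbol for 934, with 378 unmatched. Alternatives were RLE, upper quartile and no scaling, no filter, edgeR's likelihood ratio test, DESeq2 1.42.0, limma-voom 3.58.1, the replicate number as a block and each library left out. Same-numbered libraries deviated together from their group means (r = 0.21, 0.21 and 0.39 over 12688 genes, against -0.29 to -0.01 for other pairs), so the numbers were taken to pair the libraries. Deviations from a group mean cancel within the group, so positive values for some pairs make the other pairs negative on average. The main fit and the permutation test did not use this pairing. The procedure was tested on simulated data with known changes, and at the spread estimated from these libraries it left most of the changed genes uncalled.

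The 7 genes and all lists were chosen with earlier results of these data known. Genes of the lists were named by a rule: the highest mean RPKM, the lowest p, and up to 3 whose fractions did not overlap, per list. Genes nearest in profile were the 3 with the smallest difference, and those of *Klf4* are not reported here. Promoters were matched by symbol, for 5 of the 7 genes, and protein sequences were not used here. Intervals and floors take in counting error alone, since no molecular identifiers were used.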

Additional observations from a re-analysis of the deposited data

How the results depend on the processing

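None of the 7 genes passed the adjusted threshold under any alternative run. The count of all genes that passed, 0 (259 at an unadjusted p under 0.05), was 37 with no filter on low counts, 21 with edgeR's likelihood ratio test, 82 with DESeq2 and 74 with the likelihood ratio test and the replicate block. It was 0 to 1 with 1 library left out, and the 1 gene, without Vhigh replicate 1, was *Dcn*. Among the listed flow genes 1, *Thbs1*, passed with no filter, with DESeq2 and with the likelihood ratio test and the replicate block. The paired fit by the quasi-likelihood test changed no call.

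The fold changes of the 7 genes kept their direction in all 63 values from other normalizations, filters, tests and blocks, but several moved in size. With the replicate block *Klf2* was at -2.19, *Nos3* at -1.75, *Thbd* at 0.98, *Klf4* at 0.18 and *Cav1* at -3.44, and with limma-voom they were at -3.03, -2.16, 1.27, 0.075 and -4.05. With 1 library left out they ranged from -3.30 to -1.48 for *Cav1*, -2.42 to 0.034 for *Klf2*, -1.11 to 3.10 for *Klf4*, -0.50 to -0.03 for *Klf6*, 0.27 to 1.41 for *Mef2c*, -2.51 to 0.87 for *Nos3* and -0.20 to 1.45 for *Thbd*. They reversed for *Klf2* (0.034) and *Nos3* (0.87) without Vmed replicate 3, for *Klf4* (-1.11) without Vhigh replicate 3 and for *Thbd* without Vmed replicate 1 (-0.20) and without both libraries of replicate 1 (-0.46, added after the data were seen). The number of the 7 with a negative value, 4, ranged from 2 (without Vmed replicate 3) to 5, and that of listed flow genes, 91, from 83 to 102. By the length of its longest transcript the level of *Mef2c* was 53.1 RPKM. The causes of these shifts were not tested. *Klf4* had 0 to 90 reads per library, the fewest of the 7.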
